A study of Mus musculus with 6 samples.

Results

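On the 19 autosomes of newborn mouse rib chondrocytes, 507 stretches of at least 500 kb held no Jun peak. They were chosen by a measured value, the distance from the end of one peak to the start of the next on the same chromosome. They are 0.519% of the 97781 intervals between neighbouring autosomal peaks, yet they covered 586 Mb, or 24.4% of the 2400.4 Mb between the first and last peaks of these chromosomes. The study mapped the AP-1 subunit Jun by ChIP-seq, to ask how AP-1 factors and Sox9 act on chondrocytes that become hypertrophic. Of its 6 samples, the peak list is taken to belong to the 1 Jun ChIP library, since no other sample is a Jun ChIP. The cells of that library were enzyme-digested, untreated rib chondrocytes of wild-type ICR mice at postnatal day 1, and an input library came from the same kind of cells. Neither the input values nor the 4 RNA-seq libraries of Col10a1mCherry mice enter below.

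Jun pairs with Fos or other partners to form AP-1, a transcription factor that binds short DNA motifs, mostly at enhancers and promoters in open chromatin. Such elements crowd around genes that are active in a cell type. Mammalian chromosomes also contain gene deserts, long clusters of receptor genes that are silent outside sensory tissue, and blocks of late-replicating chromatin bound to the nuclear lamina, where few factors bind. Reference builds hold gaps of unsequenced bases and repeats to which short reads cannot be assigned, and neither can carry a peak. Which of these lie in each stretch was not determined, because no sequence or gene positions of mm9, the build of the list, were used here. For the same reason stretches are named by chromosome and position, counted from 1, and no sequence is shown.

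The list held 97800 autosomal peaks and 1362 peaks on X and Y. It gives no score, height or read depth. A stretch is therefore a region without a listed peak, and not one shown to be unbound. With 1 library and no replicate, the values below are descriptions of this list without a test. Intervals at the 95% level cover counting error only. They treat stretches and peaks as independent, which neighbours on a chromosome need not be, so they may be too narrow.

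Most stretches were under 1 Mb, but much of the empty sequence lay in the longer ones. Their median length was 865 kb, the central 50% ran from 641 to 1289 kb, and 10% were longer than 2232 kb. Stretches from 0.5 to under 1 Mb numbered 305 (60.2%) and made up 36.4% of the summed length. Another 140 measured 1 to under 2 Mb, 56 measured 2 to under 4 Mb, and 6 reached 4 Mb or more. These last 62 stretches, 2 Mb or longer, held 184 Mb, or 7.66% of the autosomal span. The 10 longest together held 47.3 Mb, which was 8.08% of the summed length.

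The minimum of 500 kb cut through a continuous range of lengths. The shortest members were 500588 and 501201 bp long on chromosome 4 (29707329 to 30207916 and 114909093 to 115410293) and 501621 bp on chromosome 5 (28729502 to 29231122). Just below the limit were intervals of 498077 bp on chromosome 15 (47690631 to 48188707), 497874 bp on chromosome 8 (29259924 to 29757797) and 497799 bp on chromosome 10 (54061091 to 54558889). A further 721 intervals of 250 to under 500 kb covered 10.3% of the span. Intervals of 10 to under 100 kb, which are common between neighbouring peaks, covered 42.4% of it, and those of 100 to under 500 kb 25.8%.

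Of the 10 longest stretches, 7 lay on chromosomes 1 and 7. The longest, of 7.72 Mb, ran from 39056482 to 46773130 on chromosome 7. It began beside a well-filled region, with 14 further peaks in the last 100 kb before it, and ended in a sparse one, with 3 further peaks in the first 100 kb and 4 in the first 1 Mb. The peaks on its borders were 99 and 134 bp wide and stood at 18.8% and 23.2% of the way down the list.

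The second, of 6.61 Mb on chromosome 1 (100053511 to 106667785), had 11 further peaks in the 100 kb before it and 0 in the 100 kb after it. Its right border peak measured 33 bp and was 103 kb from the next peak. The third, of 4.94 Mb on chromosome 2 (85395161 to 90330543), was the reverse. Its left border peak was 232 kb from the peak before it, while 21 further peaks followed within 100 kb of its right edge. Within 100 kb of their edges, both stretches thus had further peaks on one side only.

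The fourth stretch, of 4.49 Mb on chromosome 1 (147191755 to 151683774), had a single peak of 106 bp on its left, and beyond that peak another 846 kb without one. The next, of 4.34 Mb on chromosome 7 (20525491 to 24866901), had dense sequence on both sides, with 120 further peaks in the 1 Mb before it and 80 in the 1 Mb after it. Its border peaks lay 323 and 144 bp from the next peak. The sixth, of 4.09 Mb on chromosome 1 (113762001 to 117853251), had the opposite surroundings, with 2 further peaks in the 1 Mb before it and 1 in the 1 Mb after it.

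The remaining 4 were between 3.70 and 3.84 Mb long. The one on chromosome 14 (88865716 to 92702511) had 5 and 2 further peaks within 1 Mb of its edges. The one on chromosome 7 (7253305 to 11080630) had 53 before it and 0 after it, since its right border peak was followed by 1.93 Mb without a peak. The one on chromosome 1 (47272174 to 51020097) had 11 and 19, and its border peaks were wide, 416 and 281 bp. The one on chromosome 12 (21486348 to 25183359) had 50 and 67. The surroundings of the 10 longest stretches therefore ranged from nearly empty to denser than the autosomal average of 40.7 peaks per Mb.

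**Figure D1:**
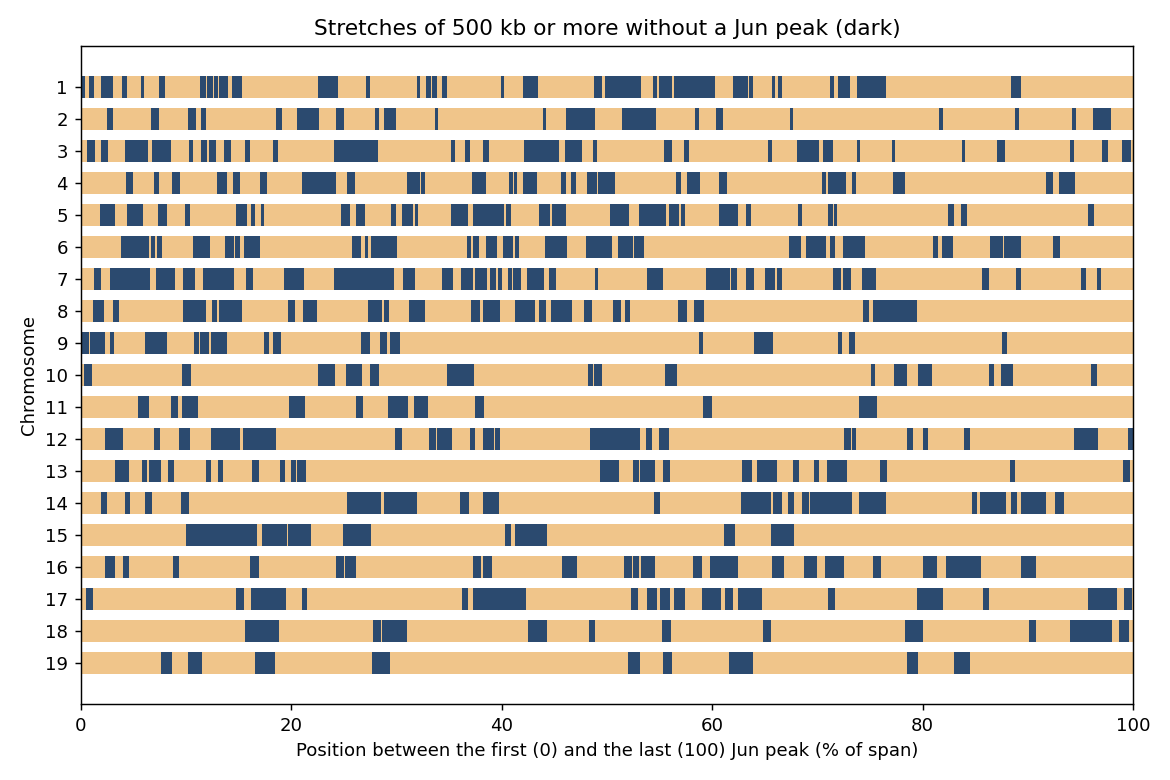
Each row is an autosome from its first (0) to its last (100) Jun peak, in % of that span, and dark blocks are the 507 stretches of at least 500 kb without a peak. Dark blocks fill the most of chromosome 7 (39.3% of its span) and the least of chromosome 11 (11.9%), and on 14 of the 19 autosomes they fill less of the last 20% of the row than of the first 20%.

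Every autosome held such stretches, from 9 on chromosome 19 to 42 each on chromosomes 6 and 7. Chromosome 7 had the highest share of its span in them, 39.3% (58.7 of 149 Mb), followed by chromosome 6 with 32.5%. Chromosome 11 had the lowest, 11.9% (14.2 of 119 Mb), next to chromosome 19 with 13.0%. The highest and lowest shares thus differed 3.29-fold, and the median of the 19 autosomes was 24.9%. In numbers, chromosome 6 had 2.87 stretches per 10 Mb (exact Poisson interval 2.07 to 3.89) and chromosome 11 had 1.01 (0.523 to 1.77).

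The longest stretch of each autosome reached at least 2 Mb on 17 of the 19. The exceptions were chromosome 9, with 1.90 Mb (11329159 to 13228395), and chromosome 19, with 1.34 Mb (39005457 to 40343351). The largest of the other autosomes outside the 10 longest were 3.66 Mb on chromosome 17 (37407184 to 41071684), 3.53 Mb on chromosome 15 (14204763 to 17731299) and 3.31 Mb on chromosome 10 (46659379 to 49971479). Number and length did not go together on every chromosome. Chromosome 15 had 13 stretches with a median of 1527 kb, whereas chromosome 9 had 23 with a median of 650.2 kb. Of the 50 longest stretches, 8 were on chromosome 1, 7 on chromosome 7 and 5 on chromosome 12, and chromosomes 9, 11, 13 and 19 had none.

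**Figure D2:**
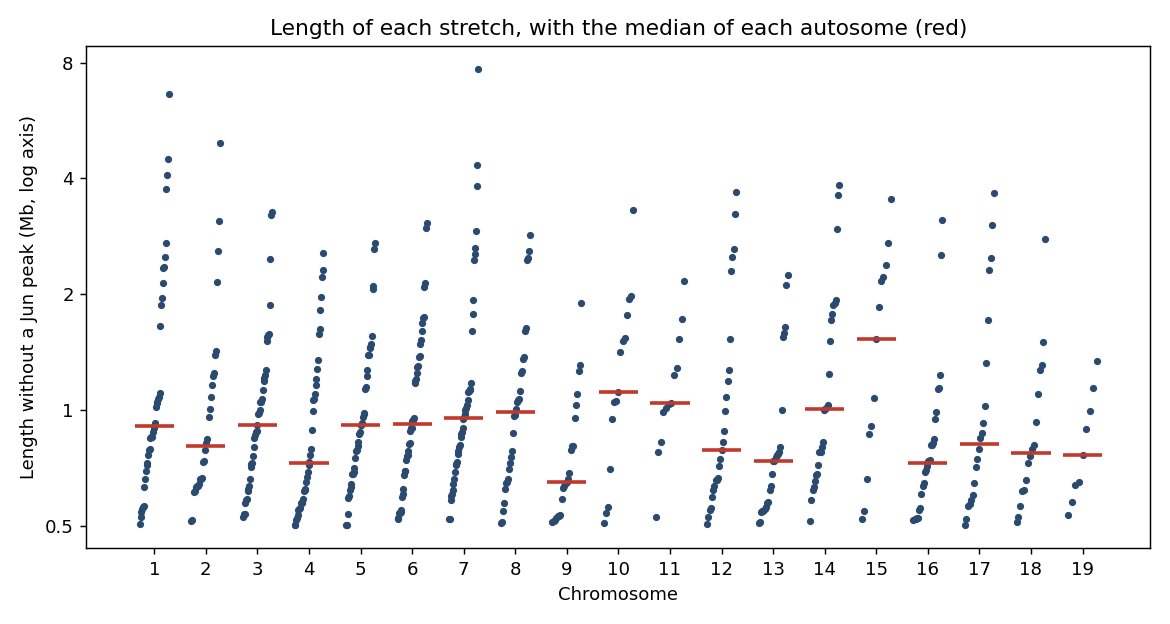
Each point is the length of 1 stretch in Mb, on a log axis, by autosome, and the red bar is the median of that autosome. The points above 4 Mb are on chromosomes 1, 2 and 7, and chromosome 15 has the highest median.

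Setting the long stretches aside changed how the autosomes rank in Jun peaks. Chromosome 7 was 13th of 19 by peaks per Mb of its whole span (38.8), and 2nd by peaks per Mb outside the stretches (63.9, exact Poisson interval 62.2 to 65.5). It then lay next to chromosome 11, which was first on both scales, with 57.7 and 65.5 peaks per Mb (63.9 to 67.1 for the second). Chromosome 17 had 45.3 and 61.6 peaks per Mb. Chromosome 14, the sparsest over its whole span with 33.3 peaks per Mb, had 47.5 outside the stretches, and chromosome 12 was then the sparsest with 45.4 (44.0 to 46.8). The ratio of the densest to the sparsest autosome was 1.73 over whole spans and 1.44 outside the stretches. All of these densities come from the same peaks as the stretches, so removing empty sequence raises each of them by construction.

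**Figure D3:**
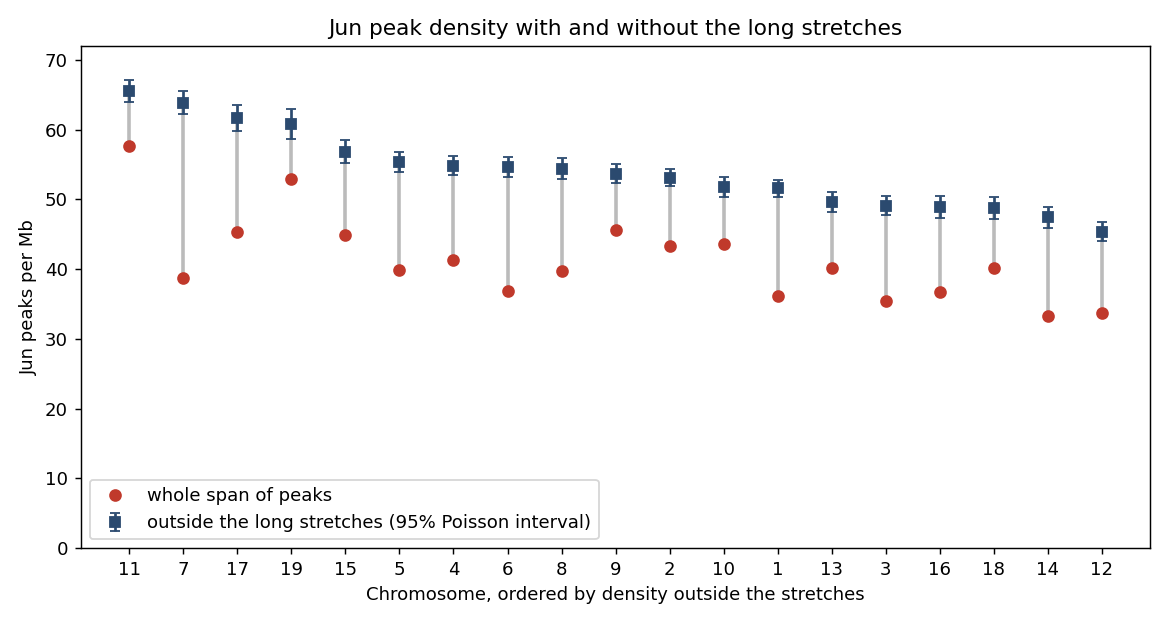
Jun peaks per Mb of each autosome, over the whole span of peaks (circles) and outside the long stretches (squares, with the 95% Poisson interval). Chromosome 7 has the longest line between its symbols, from 38.8 to 63.9.

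The stretches were fewer toward the high-numbered end of the chromosomes. Mouse chromosomes carry the centromere at one end, where their numbering starts. When each autosome's span was cut into 10 equal parts, stretches filled 27.4%, 32.6% and 31.4% of the first 3 parts. They filled from 21.9% to 29.8% of the parts in the middle, and 13.7% and 12.3% of the last 2. Peaks ran the other way, from 7091 in the first part to 14710 in the last. The share was lower in the last 20% of the span than in the first 20% on 14 autosomes and higher on 5. Chromosome 7 went from 58.5% at its start to 10.3% at its end, and chromosomes 8, 11 and 15 had no stretch in their last 20%. Chromosome 14 went from 11.6% to 33.8%, and chromosome 17 from 23.2% to 30.4%. The rule leaves out sequence before the first peak, which started at 8641285 on chromosome 14 and between 3012942 and 4669106 on the other autosomes. The share of 11.6% for the start of chromosome 14 therefore leaves out more sequence than the shares of the others.

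Many stretches were separated from the next by only a few peaks. The peaks between 2 successive stretches of a chromosome are called an island here. Of 488 islands, 92 were a single peak (18.9%, exact binomial interval 15.5 to 22.6), 38 were 2 peaks and 19 were 3. These 149 small islands held 225 peaks, or 0.230% of the autosomal peaks. At the other end, 167 islands with 100 peaks or more held 77.6% of the autosomal peaks. The other 172 islands had 4 to 99 peaks. Peaks before the first or after the last stretch of an autosome belong to no island, but they count among the autosomal peaks. The median island had 23.5 peaks over 887 kb.

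**Figure D4:**
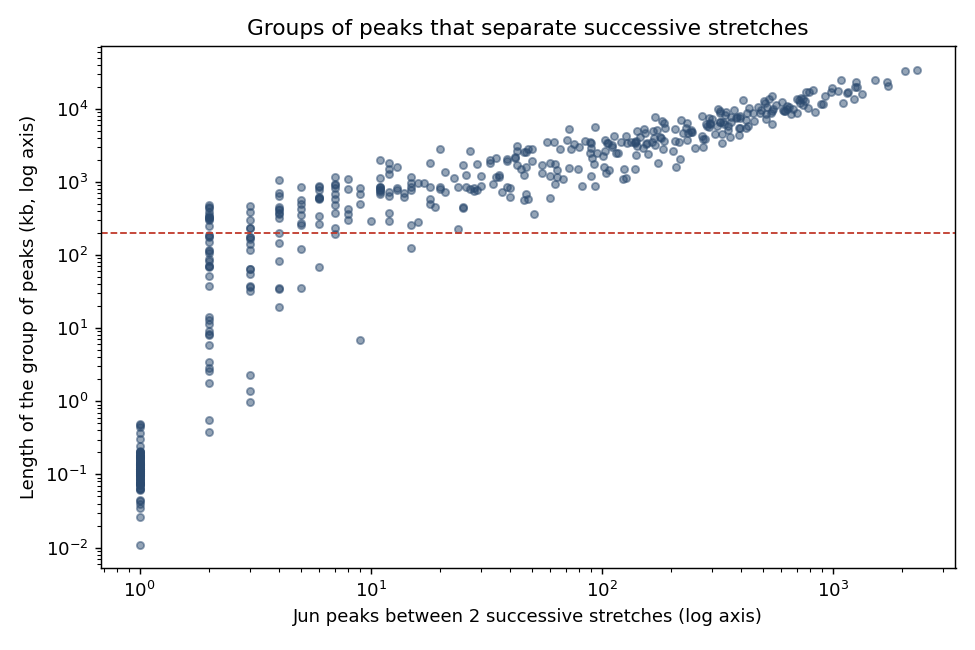
Each point is 1 of the 488 islands, with its number of Jun peaks and its length in kb, both on log axes. The column at the left is the 92 islands of 1 peak, and the dashed line marks 200 kb, the longest island across which stretches were joined into a run.

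Joining stretches across islands of at most 200 kb gave 102 runs on 18 autosomes, and no run on chromosome 19. The runs took in 246 of the 507 stretches (48.5%) and had 255 peaks inside them over 281 Mb. A stretch is in a run only together with a neighbouring stretch, so no interval is given for this share. Runs of 2 stretches numbered 70, runs of 3 numbered 25, runs of 4 numbered 4 and runs of 5 numbered 3. On chromosomes 15, 6 and 18, 69.2%, 69.0% and 68.8% of the stretches were in runs, against 13.3% (2 of 15) on chromosome 10. Stretches in runs had a median length of 881 kb and the others one of 827 kb.

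The 3 runs with the most stretches joined 5 each. On chromosome 2 a run of 5.90 Mb (94816324 to 100712065) held 5 peaks, and its stretches measured 0.662, 0.635, 1.16, 2.60 and 0.839 Mb in order. On chromosome 5 a run of 4.29 Mb (58869330 to 63157536) held 4 peaks, each alone between 2 stretches. On chromosome 9 a run of 3.73 Mb (16382588 to 20113991) held 7 peaks, and 92.7% of it lay in the stretches themselves. In the first of these runs the stretches filled 99.9% of the length, so the peaks inside were close to points.

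The longest run, of 8.53 Mb on chromosome 7 (39056482 to 47589127), added a stretch of 0.781 Mb to the longest single stretch across 4 peaks. The second, of 7.51 Mb on chromosome 1 (112692809 to 120207641), joined stretches of 1.07, 4.09 and 2.35 Mb across 5 peaks. The third, of 6.82 Mb on chromosome 15 (13297608 to 20113055), joined stretches of 0.907, 3.53 and 2.38 Mb across 2 peaks. Without those 2 peaks, this run on chromosome 15 would count as 1 stretch instead of 3.

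Among the single peaks between 2 stretches, the one with the most empty sequence beside it was an 88 bp peak on chromosome 15 (17731300 to 17731387), with 3.53 Mb before it and 2.38 Mb after it. Next came a 98 bp peak on chromosome 7 (11080631 to 11080728), between 3.83 and 1.93 Mb, and a 106 bp peak on chromosome 1 (147191649 to 147191754), between 0.846 and 4.49 Mb. These peaks stood at 30.1%, 90.5% and 82.1% of the way down the list. They were of ordinary width: the 92 such peaks had a median of 118 bp (rank-based interval 109 to 129), against 114 bp for all autosomal peaks.

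The stretches had 922 border peaks, 830 beside 1 stretch and 92 between 2. Their widths were close to those of the other 96878 autosomal peaks, with medians of 112 bp (rank-based interval 109 to 115) and 114 bp (113 to 114). Wide peaks were a smaller share of them: 94 (10.2%, exact binomial interval 8.32 to 12.3) measured 200 bp or more, against 14.1% of the others (13.9 to 14.3). Peaks under 50 bp made up 6.62% (5.10 to 8.42) of the border peaks and 6.30% of the others. Left and right border peaks had medians of 113 and 112 bp. The 721 shorter intervals of 250 to under 500 kb had 1231 further border peaks, of which 10.5% measured 200 bp or more.

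The widest border peak measured 489 bp on chromosome 6 (23788828 to 23789316). It stood alone between 2 stretches, 523 kb from its nearest neighbour. A peak of 473 bp on chromosome 5 (84846130 to 84846602) was also alone between 2 stretches, 979 kb from the nearest. A peak of 483 bp on chromosome 1 (30651712 to 30652194) bordered a stretch of 1.66 Mb and was 198 kb from the next peak. The other 2 of the 5 widest lay in fuller sequence, at 479 bp on chromosome 5 (104948791 to 104949269) with 12 further peaks within 100 kb, and at 478 bp on chromosome 6 (122825580 to 122826057) with 14. Wide peaks were thus seen both in isolation and at the rim of crowded regions.

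Border peaks stood later in the deposited list than other peaks. The meaning of that order is not stated. Their median place was 55.6% of the way down (rank-based interval 53.7 to 57.9), against 49.8% for the other autosomal peaks (49.5 to 50.1). The first 10% of rows contained 49 of the 922 border peaks (5.31%, exact binomial interval 3.96 to 6.97), against 10.1% of the others (9.94 to 10.3). The last 10% of rows contained 10.2% of the border peaks and 9.90% of the others. The border peaks of intervals of 250 to under 500 kb had much the same places, with a median of 56.8% (54.0 to 60.6) and 5.52% in the first 10% of rows, so the later place was not particular to the long stretches. For the single peaks between 2 stretches the median place was 61.5% (55.8 to 71.7). The earlier 50% of rows contained 28 of these 92 (30.4%, 21.3 to 40.9). The same rows contained 50.2% of the other autosomal peaks and 44.2% of the border peaks of 1 stretch. Other isolated peaks were not compared.

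Sequence next to the stretches was itself poor in Jun peaks, over a longer distance than the border peak. Within 100 kb of an edge, on the side away from the stretch, the mean number of further peaks was 2.10 and the median 1, over 1014 sides. Beside any autosomal peak the mean was 10.2 and the median 8 in a window of the same size. That comparison counts crowded sequence once for each of its peaks, so it lies above the plain autosomal density of 40.7 peaks per Mb. No further peak lay within 100 kb on 482 sides (47.5%), against 3.87% for all autosomal peaks. On 184 of the 1014 sides another stretch followed directly, which the rule itself makes empty. On the 829 sides where the next peak was closer than 500 kb, the mean was 2.57, the median 1, and 35.8% had no further peak within 100 kb. Beside the intervals of 250 to under 500 kb, the mean was 2.20, the median 1, and 37.6% of 1442 sides had none, so sparse flanks were found there too. From these 1442 sides none were removed. They compare with the mean of 2.10 and the 47.5% over all 1014 sides of the stretches, and not with the 829 sides. Of the border peaks, 75.3% had no other peak within 10 kb on either side (exact binomial interval 72.4 to 78.0), against 18.3% of the other autosomal peaks and 71.5% of the border peaks of those shorter intervals. By the rule, a border peak has no neighbour on the side of the stretch, and the 92 between 2 stretches have none on either side. Among the 830 border peaks of 1 stretch the share was 72.5%. On the side away from the stretch, the next peak lay within 10 kb on 22.5% of sides, against 61.8% of all autosomal intervals. Those sides include the 184 that another stretch follows, so part of each difference follows from how the stretches were chosen.

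By distance, peaks were densest close to the border peak and then scarce. The density was 50.8 peaks per Mb within 5 kb, 16.1 per Mb between 10 and 20 kb, 21.4 between 100 and 200 kb and 33.6 between 2 and 3 Mb. Beside every autosomal peak, the density was 184, 114, 77.6 and 49.0 peaks per Mb at these distances. Those windows began at the outer end of each peak and left out overlapping peaks, whereas windows beside a stretch also span the border peak. At each of the 10 distances examined, up to 3 Mb, the sequence beside the stretches had fewer peaks than that beside an average peak. These densities include the 184 sides where another stretch followed directly, whose windows up to 500 kb are empty by the rule. Part of the difference therefore follows from the rule. The autosomal average over whole spans was 40.7 peaks per Mb, below the 50.8 within 5 kb and above the density at each greater distance. Windows farther out can include another long stretch, and those that pass the last peak of a chromosome were left out.

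Close to the edge, stretches of 2 Mb or more had more peaks beside them than those under 2 Mb. The mean number of further peaks within 100 kb was 1.85 beside stretches of 0.5 to under 1 Mb (610 sides), 2.02 for 1 to under 2 Mb (280 sides), 3.21 for 2 to under 4 Mb (112 sides) and 6.58 for 4 Mb or more (12 sides). Beside the intervals of 250 to under 500 kb, which are not members, it was 2.20 (1442 sides), so the number did not rise with length throughout. Within 1 Mb of the edge the means were 24.3, 22.3, 31.5 and 39.2 for the 4 classes and 29.5 for those shorter intervals. From 1 to 2 Mb away, the density beside stretches of 2 Mb or more was 28.9 peaks per Mb, below the 31.1 beside those under 1 Mb. The spread of the counts within 100 kb was wide in each class, with central 50% of sides from 0 to 2, 0 to 2, 0 to 4 and 0.75 to 11.5 peaks. Sides with 10 peaks or more were 3.11%, 6.79%, 9.82% and 33.3% of the classes. Each class also counts sides where another stretch followed directly, which are empty by the rule and were not set apart by class. The last class has 6 stretches, 5 of them on chromosomes 1 and 7. Sides of neighbouring stretches share peaks and the medians were 1, 0, 1 and 4, so the difference rests on the fuller sides.

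**Figure D5:**
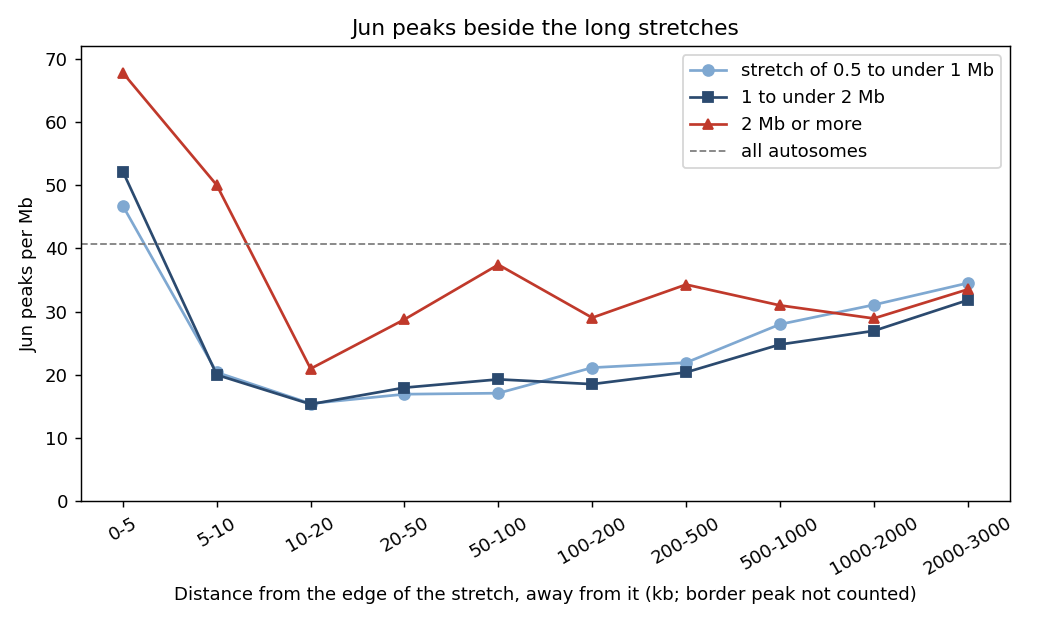
Jun peaks per Mb by distance in kb from the edge of a stretch, away from it and without the border peak, for 3 classes of stretch length, and the density of all autosomes (dashed, 40.7 per Mb). Beside stretches of 2 Mb or more the density is 67.7 within 5 kb and 37.4 at 50 to 100 kb, against 46.7 and 17.1 beside those under 1 Mb.

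On X, the same rule gave 56 stretches that filled 62.0% of the span, above every autosome. Their median length was 1045 kb, and 35 of them (62.5%) were in runs. Outside the stretches X still had 22.3 peaks per Mb, against 45.4 to 65.5 on the autosomes. The difference between X and the autosomes was thus seen in the sequence between the stretches as well. The sex of the animals is not considered here.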

How the data were processed

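The authors deposited Jun peaks as chromosome, start and end, and nothing else; the submitters' processing notes name mm9. The list is labelled FDR1, and how that threshold was set was not stated. Aligner, peak caller and the role of the input were not given in the sources used here. Starts were read as counted from 0. Stretches ran from the furthest end of the peaks so far to the next start, and 500 kb or more was kept. Runs joined stretches across islands of at most 200 kb. Spans ran from the first to the last peak. Further peaks were counted in windows that begin at the edge of a stretch. Median intervals came from ranks, shares from Clopper-Pearson intervals, densities from exact Poisson intervals. Python 3.11.15, pandas 2.3.3, numpy 2.4.6, scipy 1.17.1 and matplotlib 3.10.9 were used, and the procedure recovered planted stretches when tested on simulated data.

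The rule for stretches, the named regions and the alternatives were chosen with earlier results of these data known. Densities outside the stretches, positions along the chromosome, peaks by distance from an edge and the classes of length were added after seeing the data. Named are the 10 longest stretches, the 3 on each side of the limit, the longest of each autosome (given here in part, as a range), 3 runs by number and 3 by length, 3 single peaks between stretches, the 5 widest border peaks and the 2 autosomes at each extreme. Genes, sequence and unsequenced bases in the stretches were not analysed, because the reference tables used here are of GRCm38 and coordinates were not converted.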

Additional observations from a re-analysis of the deposited data

How the results depend on the processing

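Number and length follow the minimum length by construction. With 250 kb there were 1228 stretches with a median of 434 kb, and with 1 Mb there were 202 with a median of 1528 kb that filled 15.5% of the span. At a minimum of 1 Mb, 23.8% of the stretches were in runs, and with islands of up to 500 kb allowed, 59.8%. Leaving out the 2751 peaks with no other peak within 50 kb gave 596 stretches, against 507. It raised the median to 1029 kb and the share of the span to 36.4%, since fewer peaks interrupt the empty sequence. The median distance from a border peak to the next peak away from the stretch was 77.5 kb, and 64.4 kb with a minimum of 250 kb. Leaving out peaks narrower than 50 bp gave 519 stretches, and measuring from centre to centre gave 507. The ratio of densest to sparsest autosome outside the stretches, whose alternatives were chosen after seeing the data, was between 1.34 and 1.58. Alternatives with chromosome ends, unsequenced bases or genes need mm9 and were not run. No paired analysis was possible because there is 1 Jun library. Without read depth, weak sites in a stretch would not be seen.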

Other observations

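The places below were picked after their values were seen. The first and last 50% of the list, taken alone, gave 632 and 608 stretches, which covered 33.7% and 30.2% of the autosomal span. Every stretch of the whole list is empty in both by construction.

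Between the stretches lay long regions without any gap of 500 kb. The longest, on chromosome 9 (39999803 to 74224309), held 2311 peaks over 34.2 Mb, and the next, on chromosome 13 (28136550 to 60840029), 2057 over 32.7 Mb. Among the islands, 44 such regions of 10 Mb or more, found on all 19 autosomes, held 41.9% of the autosomal peaks in 29.0% of the span. Peaks before the first or after the last stretch of an autosome were left out, although these end regions can also be long. On chromosome 15, for example, the last stretch ended at 71157178 and the last peak at 103407569. The count and shares therefore do not cover every region without such a gap.

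The emptiest fixed window of 10 Mb was on chromosome 1 (110000001 to 120000000), with 7 peaks and 96.8% of its length in stretches. The next, on chromosome 7 (40000001 to 50000000), had 17 peaks and 86.6%. Of 220 such windows, 35 lay more than 50% in stretches and 35 touched none. Only windows wholly between the first and last peak of an autosome were used, so the first 10 Mb of each autosome was not examined.

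Some small islands were crowded. On chromosome 5, 9 peaks lay within 6.88 kb (109981523 to 109988403), between stretches of 0.826 and 0.535 Mb. On chromosome 6, 15 peaks lay within 126 kb (131243193 to 131369134), between stretches of 1.75 and 1.68 Mb. The fullest flank of any stretch was on chromosome 3, where 37 further peaks lay in the 100 kb before a stretch of 0.708 Mb (93405564 to 94113894).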
